A study of Mus musculus with 6 samples.

Results

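Hedgehog signalling was followed through 9 genes in RNA from mouse embryonic hearts: Ptch1, Smo, Gli1, Gli2, Gli3, Hhip, Boc, Cdon and Gas1. They were chosen by name, and all 9 were found among the 15330 genes of the table. Hedgehog proteins are secreted signals. In their absence the membrane receptor Ptch1 keeps the transducer Smo inactive, and ligand bound to Ptch1 releases Smo, which acts in the primary cilium to switch the Gli transcription factors from repressors to activators. Gli1, Ptch1 and Hhip are themselves transcribed in response to the signal, so their RNA is widely used as a readout of pathway activity. Near the heart of this stage the ligand Shh is made by the endoderm of the pharynx and foregut and acts on the second heart field, the progenitors that lengthen the heart tube at its poles.

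The hearts were micro-dissected at embryonic day 9.5. Of the 2 groups of 3 libraries, one was wild-type and the other H2-URI d/d, in which both alleles lack 373 kb cut out with CRISPR-Cas9, an interval that reaches from a predicted boundary far upstream of Hand2 to the Uph long non-coding RNA beside it. Hand2 is a transcription factor of heart, limb and branchial arches, and in the limb bud it and Gli3 restrain each other. Each group held 2 libraries labelled female and 1 labelled male. The labels give no strain, no number of hearts per library and no number of founder lines, so a p-value weighs a difference against library spread that may in part be technical.

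Hand2, the check of the labels, had 4036 ± 328 normalized counts (SD, n = 3) in wild-type and 1115 ± 78.3 (SD, n = 3) in deletion hearts, which is −1.85 on the log2 scale (limma, adjusted p = 1.51e-05). A normalized count is the number of reads of a gene divided by a size factor of its library. Columns were matched to samples by the code in the sample titles, and for 4 of 6 columns the file is recorded under the other group, so each direction given here rests on the titles. All 8 myocardial and all 6 endocardial markers were present, with sums of 714423 to 832933 and 16424 to 17587 normalized counts. Heart tissue was thus present by its defining genes, but these markers cannot show whether tissue beside the heart was included. Erythroid markers varied most, with sums of 84560 to 450655. The libraries held 25583210 to 32043595 reads. In bulk RNA, fewer cells that express a gene and less RNA per cell cannot be told apart, which touches every result below.

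None of the 9 genes passed an adjusted p of 0.05 in limma, where 3.05% of all genes did, and 0 had an unadjusted p under 0.05, where 21.4% of all genes did. The count was also 0 with edgeR and with DESeq2. The 2 groups overlapped for all 9 genes, while they were apart for 27.4% of all genes. The 9 log2 fold changes (deletion minus wild-type, on the scale of log2(normalized count + 1)) ran from −0.08 for Gas1 to 0.90 for Hhip, 7 of them positive, with a median of 0.16 against −0.0073 over all genes. Spread was wider among the wild-type hearts. Their SD on the log2 scale was above the deletion SD for 8 of 9 genes, against 66.5% of all genes, and its median over the 9 was 0.37 in wild-type and 0.16 in deletion hearts (0.14 and 0.10 over all genes).

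**Figure D1:**
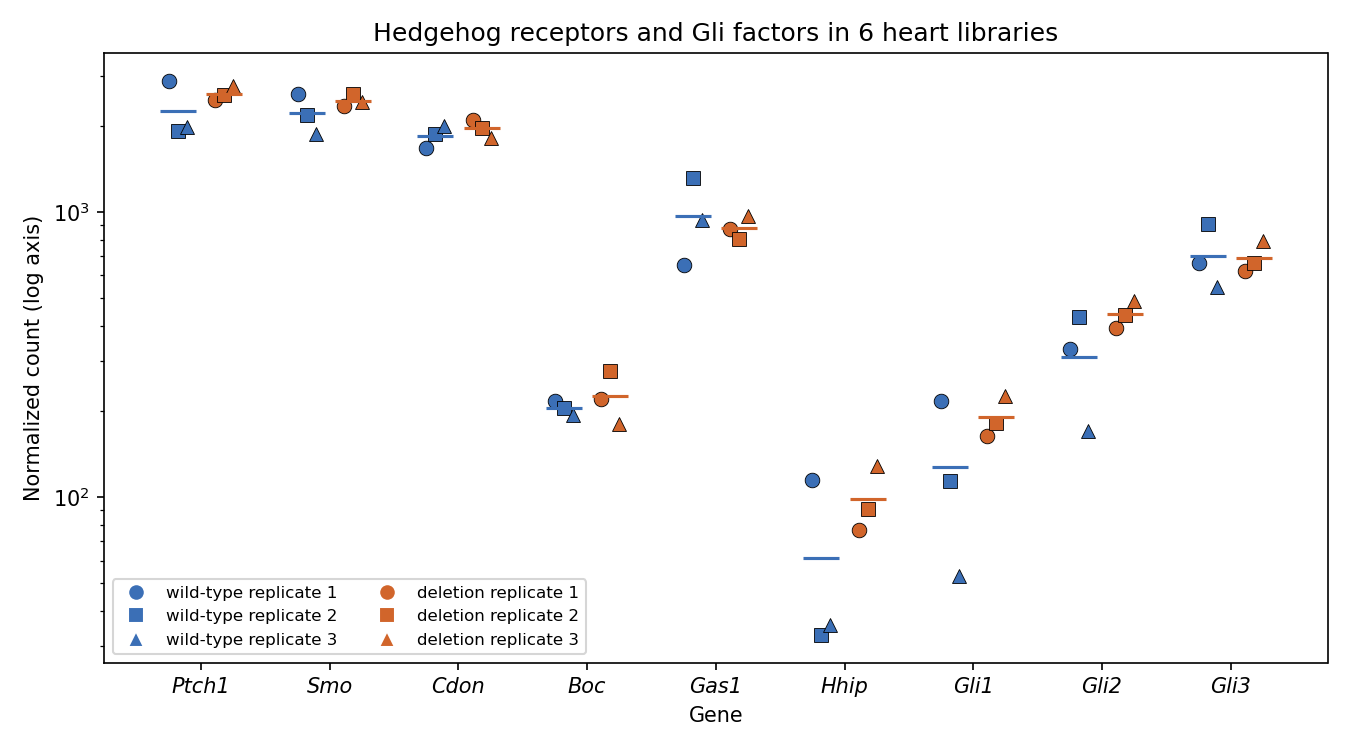
Normalized counts (log axis) of the 9 Hedgehog genes in each library; blue is wild-type, orange is deletion, the marker shape gives the replicate number and the horizontal line the group mean. The groups overlap for all 9 genes, and wild-type replicate 1 (blue circle) is the highest wild-type library for Ptch1, Smo, Gli1, Hhip and Boc.

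Ptch1, the receptor that holds Smo in check and a target gene of the pathway, had 2891, 1927 and 1985 normalized counts in the wild-type libraries (replicates 1, 2 and 3, in that order throughout) against 2479, 2575 and 2763 with the deletion. Wild-type replicate 1 was the highest of the 6 libraries and the other two wild-type libraries were the lowest, so the deletion hearts lay between them. The means were 2268 ± 541 and 2606 ± 144 (SD, n = 3), a log2 fold change of 0.22 (95% interval −0.08 to 0.53, adjusted p = 0.382, limma). Permuting the 6 values gave p = 0.4 (exact, two-sided), where the smallest p that 3 against 3 allows is 0.1.

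Hhip, a membrane-bound protein that captures Hedgehog ligand and is a target gene of the pathway, had 115, 32.9 and 35.7 normalized counts in the wild-type libraries against 77.1, 91.0 and 129 with the deletion. Replicate 1 of the wild-type again stood with the deletion hearts and apart from the other two, which were the 2 lowest libraries. These values rest on 101, 37 and 39 reads in the wild-type libraries and on 73, 98 and 119 with the deletion, the fewest of the 9 genes in each library. The log2 fold change was 0.90 (95% interval −0.06 to 1.85, adjusted p = 0.260, limma), the largest of the 9.

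Gli1, the activator that is transcribed when the pathway is on, had 217, 114 and 53.1 normalized counts in the wild-type libraries against 165, 183 and 226 with the deletion. The wild-type libraries spanned 4.08-fold from highest to lowest and the deletion libraries 1.37-fold. The log2 fold change was 0.78 (95% interval −0.12 to 1.69, adjusted p = 0.296, limma). It was 0.27 without wild-type replicate 3, the lowest library.

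The region upstream of a responsive gene is shown for Ptch1 and Hhip, whose values followed each other across the libraries. RefSeq promoter windows (build GRCm38.p6, 250 bases before to 50 after the start) were held for 7 of the 9 genes, all but Gli1 and Boc. The Gli binding motif GACCACCCA, searched on both strands, was in 0 of the 7 windows and in 0.253% of the 32851 windows of all genes. Its inner part CCACCC, which lies within that motif, was in 4 of the 7 (Smo, Gli2, Gli3 and Hhip) and in 31.5% of all windows. The 250 bases before the start are printed 5′ to 3′ on the gene's strand, with CCACCC in capitals. Whether an annotated exon overlaps either stretch was not tested. A match is a run of letters and no match says only that these letters are not in the window.
Ptch1, chr13:63565736-63565985, minus strand: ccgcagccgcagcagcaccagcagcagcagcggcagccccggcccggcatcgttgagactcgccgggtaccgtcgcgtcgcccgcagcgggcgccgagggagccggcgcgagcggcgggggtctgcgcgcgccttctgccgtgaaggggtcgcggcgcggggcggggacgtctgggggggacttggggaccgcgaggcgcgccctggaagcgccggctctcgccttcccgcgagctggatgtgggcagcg
Hhip, chr8:80058009-80058258, minus strand: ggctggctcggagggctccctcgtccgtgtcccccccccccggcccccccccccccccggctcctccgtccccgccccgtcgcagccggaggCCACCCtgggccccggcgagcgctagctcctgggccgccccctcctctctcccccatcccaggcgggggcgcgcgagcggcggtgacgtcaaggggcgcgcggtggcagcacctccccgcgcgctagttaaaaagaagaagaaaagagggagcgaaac
The Ptch1 window had a GC content of 76.3% and the Hhip window 73.7%, against a median of 52.7% over all windows, and the single CCACCC of Hhip begins 158 bases before the start.

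Smo, the transducer itself, had 2603, 2196 and 1882 normalized counts in the wild-type libraries against 2363, 2593 and 2428 with the deletion. Its order was like that of Ptch1, with wild-type replicate 1 highest and replicates 2 and 3 lowest, over a narrower range. The log2 fold change was 0.16 (95% interval −0.08 to 0.39, adjusted p = 0.434, limma), and it ran from 0.041 without wild-type replicate 3 to 0.27 without wild-type replicate 1, with no call in either case. Wild-type replicates 2 and 3 were the 2 lowest libraries for 4 of the 9 genes, Ptch1, Smo, Gli1 and Hhip.

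Gli2, the main activator downstream of Smo, had 330, 431 and 170 normalized counts in the wild-type libraries against 393, 435 and 489 with the deletion. Wild-type replicate 3 was the lowest library, replicate 1 was also below the 3 deletion libraries, and replicate 2 lay among them. The log2 fold change of 0.59 (95% interval −0.03 to 1.21, adjusted p = 0.252, limma) came down to 0.21 without wild-type replicate 3. It went up to 0.88 without wild-type replicate 2 (adjusted p = 0.0592, limma). Gli3, which acts mostly as a repressor, had 661, 906 and 546 normalized counts in the wild-type libraries against 623, 665 and 789 with the deletion, with wild-type libraries at both ends of the order. Its log2 fold change was −0.000073 with a 95% interval of −0.37 to 0.37.

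The co-receptors bind ligand beside Ptch1 and favour signalling. Cdon had 1676, 1874 and 2006 normalized counts in the wild-type libraries against 2113, 1974 and 1815 with the deletion, with a log2 fold change of 0.09 (95% interval −0.10 to 0.28). Its paralog Boc had 218, 206 and 194 in the wild-type libraries against 221, 277 and 180 with the deletion, with 0.11 (95% interval −0.24 to 0.47). Boc was the only gene of the 9 whose deletion libraries spread more than the wild-type ones, since deletion replicates 2 and 3 were its highest and lowest. Gas1, a membrane-anchored co-receptor, had 652, 1319 and 935 in the wild-type libraries against 871, 807 and 969 with the deletion (log2 fold change −0.08, 95% interval −0.54 to 0.38). Wild-type replicate 1, highest for Ptch1, was the lowest library for both Gas1 and Cdon. Without wild-type replicate 2, its highest library, the value of Gas1 was 0.17.

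**Figure D2:**
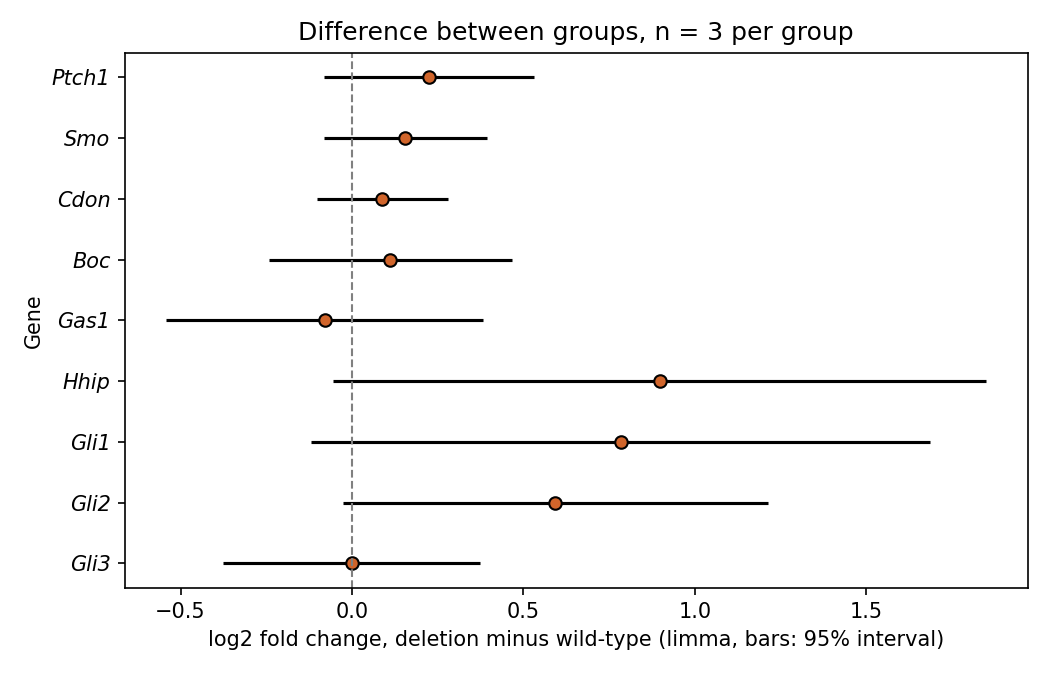
Log2 fold change (deletion minus wild-type) of each gene with its 95% interval from limma, 3 libraries per group. All 9 intervals include 0, and those of Hhip and Gli1 are the widest.

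Levels of different genes were compared per kilobase of the longest reference transcript. In wild-type hearts Smo had the highest level, 589 ± 95.6 normalized counts per kb (SD, n = 3), followed by Gas1 with 327 ± 113, Cdon with 247 ± 22.1 and Ptch1 with 218 ± 52.1. Gli3 had 86.2 ± 22.5, Gli2 46.8 ± 19.8, Boc 46.3 ± 2.69, Gli1 31.5 ± 20.4 and Hhip 6.73 ± 5.11. The library ranges of Gas1, Cdon and Ptch1 overlapped from neighbour to neighbour, as did those of Gli2, Boc and Gli1, so their order within each trio is not settled. The deletion hearts had the same order of means, from 651 ± 31.4 for Smo to 10.9 ± 2.93 for Hhip, and the same overlaps between neighbours. The ends of each trio were apart there: Gas1 did not overlap Ptch1, and Gli2 did not overlap Gli1. In wild-type hearts both of these pairs overlapped.

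A ratio of 2 genes within a library does not depend on its size factor. The log2 ratio of Gli1 to Gli3 was −1.61, −2.99 and −3.36 in the wild-type libraries against −1.92, −1.86 and −1.81 with the deletion. The deletion hearts were nearly equal (SD 0.06), and the wild-type hearts (SD 0.93) lay on both sides of them. Deletion minus wild-type was 0.79 for Gli1 to Gli3, 0.76 for Hhip to Smo, 0.20 for Gli1 to Gli2, 0.07 for Ptch1 to Smo and 0.02 for Boc to Cdon. For these 5 pairs the exact permutation p (two-sided) was 0.3 to 0.9, and 0.875 to 0.9 adjusted over the pairs. Single wild-type libraries moved the larger differences: Gli1 to Gli3 was 1.32 without replicate 1 and 0.44 without replicate 3, and Hhip to Smo was 1.22 without replicate 1 and 0.44 without replicate 2.

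Across the 6 libraries, Hhip was the gene most like Ptch1 among 11939 genes whose mean reached 50 normalized counts (Pearson r = 0.989 on the log2 scale). Gene models (Gm and Rik names, bare Ensembl identifiers), Xist, Tsix and Y-linked genes had been left out of the 11939. Next came Nkx2-6, a homeobox gene of pharynx and outflow tract, with r = 0.988, and Ctxn1 with r = 0.985. Nkx2-6 had 442, 169 and 152 normalized counts in the wild-type libraries against 291, 359 and 397 with the deletion, the same placing of wild-type replicate 1 as for Ptch1. The genes most like Gli1 were Ldb1 (r = 0.985), Gfra2 (r = 0.982) and Mogs (r = 0.982). Over so few libraries, high values of r arise among so many genes, and all these genes share the depth and the dissection of each library. Ptch1 had r = 0.864 with Gli1, 0.846 with Smo, 0.448 with Gli2, −0.07 with Gli3 and −0.76 with Gas1.

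The ligands rested on few reads. Shh had 154, 6.23 and 16.5 normalized counts in the wild-type libraries against 41.2, 35.3 and 74.5 with the deletion, from 136, 7 and 18 reads and from 39, 38 and 69 reads. Wild-type replicate 1 was the highest library and the other two the lowest, as for Ptch1, and the log2 fold change was 0.85 (95% interval −1.16 to 2.87). The sign of that value turned in edgeR (−0.18). Dhh, a ligand known from endothelial and Schwann cells, had 80.6, 94.3 and 86.0 in the wild-type libraries against 69.7, 88.2 and 92.9 with the deletion, with no library apart. Ihh was not among the rows.

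Markers of the pharyngeal and foregut endoderm were read beside these values, with 12 of 13 measured and Foxa2 not among the rows. Relative to each gene's mean over the libraries on the log2 scale, their median was 1.08, −0.83 and −1.03 in the wild-type libraries against 0.16, 0.07 and 0.61 with the deletion. Shh is itself 1 of the 12. Wild-type replicate 1 held the highest wild-type value for 10 of the 12, among them Epcam, an epithelial adhesion protein, with 263, 101 and 54.0 normalized counts, and the pioneer factor Foxa1 with 88.5, 16.9 and 9.15. Epcam and Foxa1 were chosen after their values were seen. Pax1 was at 0 in 1 wild-type library and no other marker was at 0. The summed level, to which Krt8, Krt18 and Krt19 gave most, was 5804 to 8322 normalized counts in wild-type and 7972 to 8341 in deletion hearts. Krt19 was the 1 marker of the 12 that passed the test, higher in the deletion (adjusted p = 1.52e-04, limma). Of all genes, 1.55% were called higher. The 10 markers of the second heart field and pharyngeal mesoderm summed to 2372, 1771 and 1677 in the wild-type libraries against 1979, 2032 and 2590 with the deletion. Of these, 1 was called higher, Tbx1, close to the threshold (log2 fold change 1.90, adjusted p = 0.0495, limma). It had 85.1, 32.9 and 19.2 normalized counts in the wild-type libraries against 136, 130 and 168 with the deletion. Calls were not confined to these 2 lists. Of the 6 endocardial markers, Tek was called lower (−0.35, adjusted p = 0.0178, limma) and Kdr higher (0.33, adjusted p = 0.0317, limma). Of the 3 neural crest markers, Ets1 was called lower (−0.30, adjusted p = 0.0376, limma). Of all genes, 3.05% were called in either direction. Wild-type replicate 1 held the highest wild-type value for 7 of the 10 second heart field and pharyngeal mesoderm markers. It did so for 3 of 6 endocardial, 2 of 8 myocardial, 1 of 6 epicardial, 1 of 3 neural tube and 0 of 6 erythroid markers. For neural crest it was 0 of 3 and for septum transversum and liver bud 0 of 4. The share of all genes with that order was not computed. Krt8, Krt19 and Fgf10 were among the endoderm and second heart field markers without that order, and among the Hedgehog genes Cdon, Gas1, Gli2 and Gli3 did not have it either. The part of these cell types in the values was not tested.

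**Figure D3:**
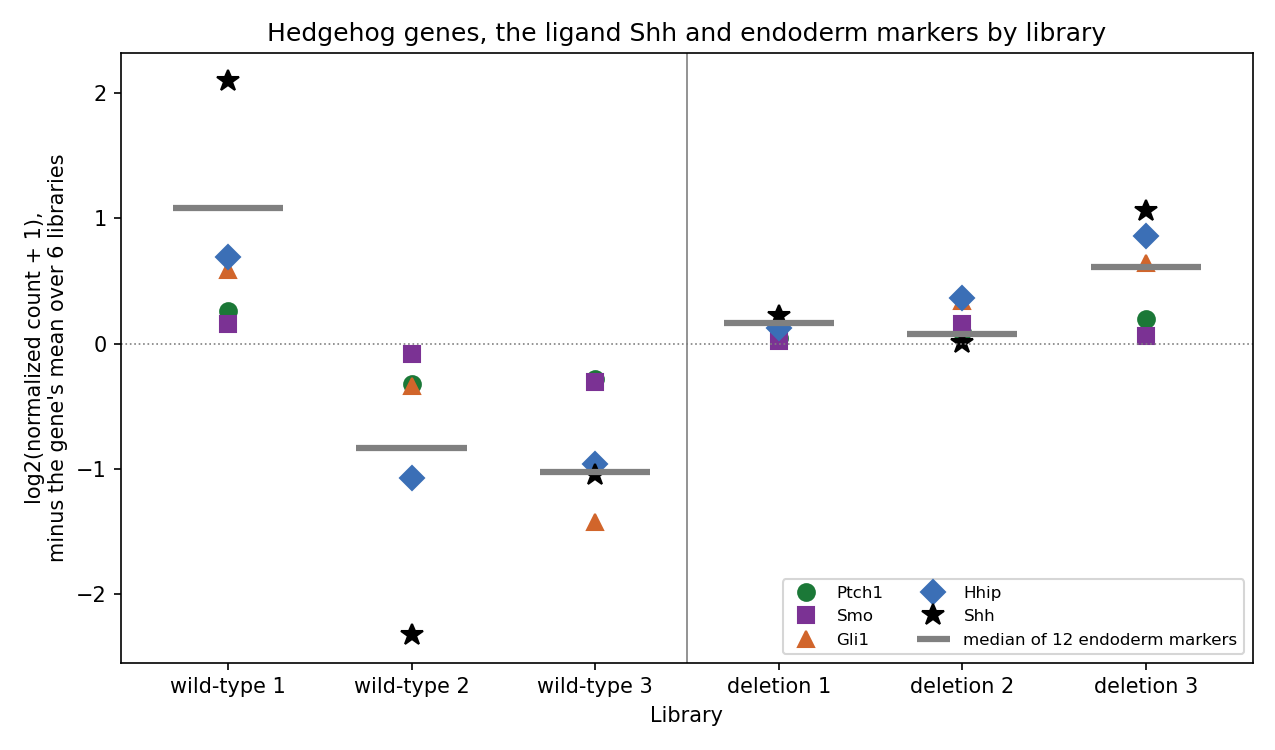
Ptch1, Smo, Gli1, Hhip and the ligand Shh in each library, as log2(normalized count + 1) minus the gene's mean over the 6 libraries; grey bars give the median of 12 endoderm markers, Shh among them, on the same scale. Wild-type replicate 1 is above 0 for all 5 genes and for the markers, and wild-type replicates 2 and 3 are below 0 for all of them.

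The result for the readout genes depended on wild-type replicate 1. Without it, Ptch1 (log2 fold change 0.41, adjusted p = 0.0115), Gli1 (1.27, adjusted p = 0.0407) and Hhip (1.47, adjusted p = 0.0150) passed the threshold in limma, all higher in the deletion, so 3 of 9 were called where 2.18% of all genes were called higher in that fit. Of the genes named below, Shh also passed as higher (2.12, adjusted p = 0.0341) and the responsive gene Ccnd2 as lower (−0.36, adjusted p = 0.0199), where 1.84% of all genes were called lower. The call of Gli1 ended under a correction for transcript length and GC content as well (adjusted p = 0.0679), while Ptch1 and Hhip still passed. No label sets that library apart, it is 1 of the 2 female wild-type libraries, and it was looked at because of these values. It had the fewest reads of all libraries, 25583210, while wild-type replicates 2 and 3 had the most, 32028443 and 32043595. The part of depth in these values was not tested. With any other library left out, 0 of the 9 genes were called. Without wild-type replicate 3 the values were 0.27 for Gli1, 0.64 for Hhip and 0.14 for Ptch1.

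**Figure D4:**
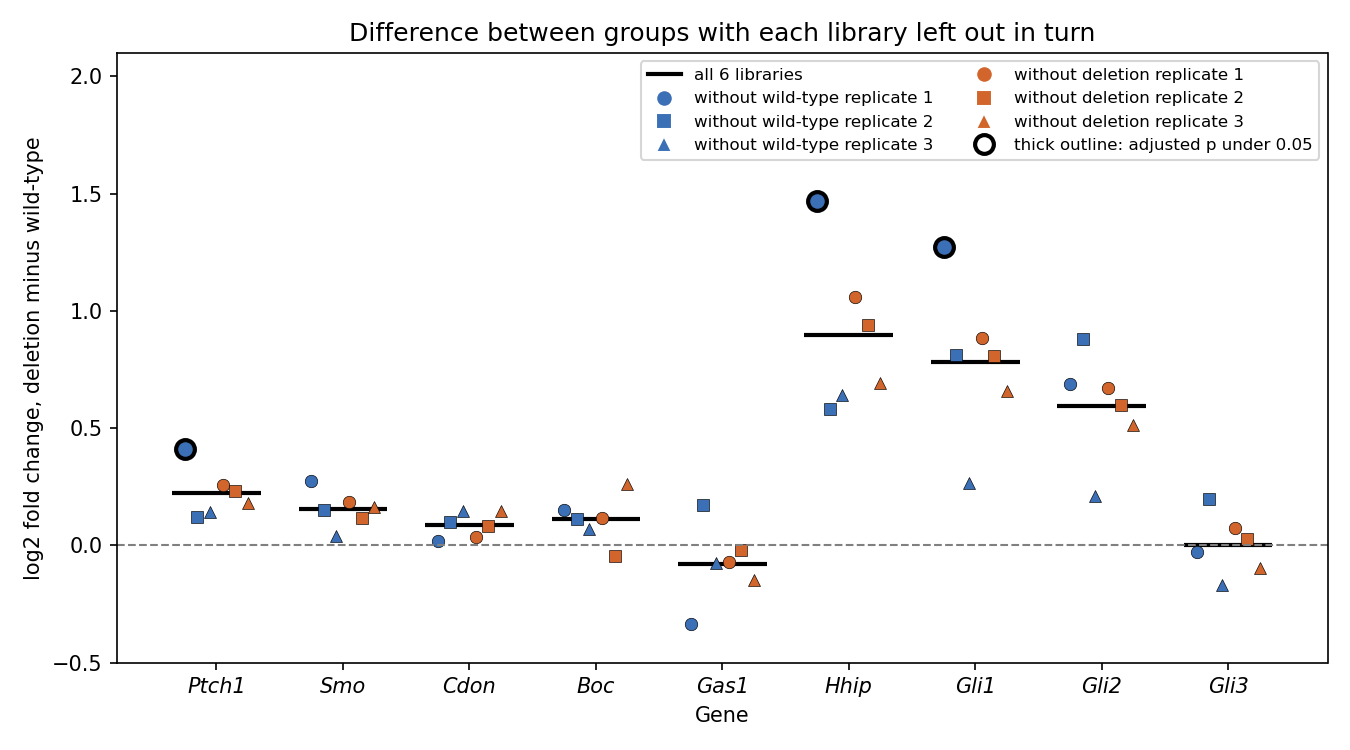
Log2 fold change (deletion minus wild-type) of each gene with all 6 libraries (black line) and with 1 library left out (markers); a thick outline marks an adjusted p under 0.05. Thick outlines appear for Ptch1, Hhip and Gli1 without wild-type replicate 1 and nowhere else.

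Other genes of the pathway were read from 4 lists. Of 10 measured genes of ligands and their release, 0 were called, with 3 at an unadjusted p under 0.05 in limma (21.4% of all genes) and 0 called in edgeR or DESeq2. Scube3, of the secreted proteins that help release ligand, had 390, 585 and 239 in the wild-type libraries against 581, 489 and 685 with the deletion (log2 fold change 0.61, adjusted p = 0.228), and without wild-type replicate 2 it passed (0.92, adjusted p = 0.0330). The list's median was −0.03.

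Of 20 genes of Gli processing and Smo regulation, 1 rose and 0 fell, where 1.55% of all genes rose, and the median was 0.07. The count was 0 with fold changes corrected for transcript length and GC content, without an intensity trend in the fit, without wild-type replicate 3 and without any 1 of the deletion libraries. Sufu, the main inhibitor that holds Gli proteins, had a log2 fold change of 0.13 and Kif7, its partner at the cilium tip, 0.16, and neither passed (both named after their values were seen).

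Of 28 genes of the primary cilium, where Smo acts, 1 rose and 0 fell, where 1.55% of all genes rose. The median was 0.06. Tctn1, a protein of the ciliary transition zone, rose from 341, 293 and 272 normalized counts in wild-type to 433, 423 and 423 in deletion hearts (log2 fold change 0.50, SE 0.11, adjusted p = 0.0376, limma). The call ended with the replicate number as a block (adjusted p = 0.0742), with sex as a covariate (0.0526), under the same length and GC correction (0.0576), without an intensity trend (0.0821), without wild-type replicate 3 and without any 1 of the deletion libraries. The motor subunit Kif3a and the transport proteins Ift88 and Arl13b, named after their values were seen, had log2 fold changes of 0.07, −0.02 and −0.01.

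Of 14 further genes known to respond to Hedgehog signals, 0 were called in limma, edgeR or DESeq2, with 1 at an unadjusted p under 0.05 in limma (21.4% of all genes) and a median of −0.00062. That one was the cyclin gene Ccnd2, with 22686, 28332 and 27976 normalized counts in the wild-type libraries against 22985, 21968 and 20904 with the deletion (log2 fold change −0.26, adjusted p = 0.172). Mycn, a growth regulator, had a log2 fold change of 0.15. Foxf1, a forkhead gene of the mesoderm around the foregut, and Osr1, a gene of the posterior second heart field, had 152, 72.1 and 43.9 and 251, 108 and 121 normalized counts in wild-type hearts. Both were named after their values were seen. Wild-type replicate 1 was the highest wild-type library for both and for 8 of the 14 genes of this list. It was the lowest wild-type library for Bcl2, Ccnd1, Ccnd2 and Foxc2 and the middle one for Sfrp1 and Rab34. The lists share genes: Foxf1 and Osr1 are also second heart field markers above, and Nkx2-1 is an endoderm marker. The share of all genes with wild-type replicate 1 highest was not computed. In deletion hearts Foxf1 had 47.5, 85.4 and 170 and Osr1 168, 152 and 267.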

How the data were processed

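Total RNA of stage-matched hearts was made into strand-marking mRNA libraries and read from both ends, per the labels' protocols. DESeq2 1.30.1, featureCounts, Subread 2.0.1, STAR 2.7.9a and the builds mm39 and GRCm39 appear in the submitters' processing notes. Which strand setting, annotation and gene filter were used is not given in the sources used here. One table of 6 columns was used, and 5 further files repeat 1 of its columns each. Its unit is a deposited signal: gene counts that the authors scaled by library, named normalized counts per the file headers. All values were whole multiples of 1 read (100% within a tolerance of 0.01), so reads were recovered.

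The test across all 15330 genes used the limma trend method of limma 3.58.1 under R 4.3.3, two-sided, on values as log2(normalized count + 1), Benjamini-Hochberg adjusted, threshold 0.05; the minimum mean of 10 removed no gene. It was also run on simulated data with known changes, and the outcome is not given here, so no result rests on it. edgeR 4.0.16 and DESeq2 1.42.0 on recovered reads, scalings, pseudocounts, filters, covariates, the recorded file assignment, a length and GC correction and each library left out were alternatives. Lengths came from GENCODE M21 (GRCm38, another build than the authors'), known for 96.9% of genes. Members and lists were chosen with earlier results of these data known. The genes named are the 9, Hand2, the ligands, up to 4 called genes of each list or else the 2 of smallest p, and 3 genes each most like Ptch1 and Gli1; others are said to be chosen after their values were seen. Of the genes this rule names, 2 are not reported here, though they remain in the counts.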

Additional observations from a re-analysis of the deposited data

How the results depend on the processing

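The 9 genes gave the same direction and the same side of the threshold in 186 of 207 recomputed values over 23 alternatives. Of the rest, 13 turned the sign and 8 passed the threshold. A change of filter, intensity trend, robust variance, sex covariate or replicate block leaves each fold change as it was. The direction could not differ there. The number called higher was 0 to 3 with each library left out, 3 with edgeR without wild-type replicate 1, and 2 with the length and GC correction without it (both chosen after seeing the data), where Cdon was −0.018. Gli3, at 0 in effect, turned positive with equal totals (0.046), quantile normalization (0.0061) and TMM factors (0.0074), and ran from −0.17 to 0.20 with a library left out; Boc ran from −0.045 to 0.26, Gas1 from −0.34 to 0.17, Dhh from −0.15 to 0.060 and Shh from −0.10 to 2.12, with −0.18 in edgeR and −0.22 in DESeq2. The log2 ratios ran from −0.062 to 0.59 for Gli1 to Gli2, −0.032 to 0.14 for Ptch1 to Smo and −0.13 to 0.13 for Boc to Cdon. Under the recorded file assignment the values were 0.35 for Gli3, −0.18 for Boc, −0.18 for Cdon, 0.11 for Gas1, 0.57 for Hand2, 0.14 for Dhh, −0.15 for Mycn and −0.080 for Tctn1, and 0 genes were called.

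Of all genes 230 were called lower and 237 higher. These counts were 73 and 73 without an intensity trend, 600 and 539 in DESeq2, and 61 to 695 and 42 to 466 with a library left out; with equal totals 393 were higher, and the share of higher calls depends on that scaling. With the replicate block they were 110 and 96, and the block changed no call of the 9 genes. Libraries with the same number did not deviate together (r = −0.03, −0.12 and −0.14), and pairs with unlike numbers ran from −0.16 to 0.25. Libraries with the same number also share the labelled sex, and these values cannot show whether they share anything else. In the lists, ligand genes called higher numbered 0 to 2 with a library left out, and 1, Scube1, was lower with the length and GC correction. Genes of Gli processing called higher numbered 0 to 1 with a library left out and 0 without an intensity trend, under the recorded assignment and with that correction. For the cilium the range was 0 to 1 in either direction, and the count of higher genes was 0 under those 3 settings, with sex and with the replicate block. Lower calls among responsive genes numbered 0 to 1. Where calls fell with a library left out, fewer samples were tested; for the other changes the cause was not tested. Among the 9 genes, Hhip had the fewest reads in every library, and the part of depth in its values was not tested.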
